A study of Homo sapiens with 29 samples.

Results

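Genes of ion channels and of neurotransmitter receptors were examined in DRB/TTchem-seq of HEK293 cells. They were found by their current symbols, which start with the root names of the potassium, sodium, calcium, TRP, chloride and anoctamin channels, of the ryanodine receptors, and of the glutamate, GABA-A, acetylcholine, serotonin and dopamine receptors. The pattern matched 85 of the 4592 listed genes, from 60.8 to 285 kb wide. 1 match, TRPC4AP, is no channel subunit: its protein binds the TRPC4 channel and brings substrates to a ubiquitin ligase. Another, KCNIP3, encodes a calcium-binding protein that attaches to potassium channels.

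Ion channels let ions cross a membrane when voltage, a ligand or calcium opens them, and most of the genes listed here serve the electrical signalling of neurons, muscle and sensory cells. Ionotropic receptors are channels opened by a transmitter, while metabotropic receptors act through G proteins. Some channels and transporters, such as CLCN3, TRPM7 and ANO6, work in nearly every cell type.

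HEK293 is a human embryonic kidney cell line. The first group of cells received a lentivirus with the control hairpin (shCtrl) and the other a hairpin against THOC5 (shTHOC5), each for 4 days. THOC5 belongs to the THO complex, which binds nascent RNA during transcription and export. All 8 dishes were held in 100 uM DRB for 3.5 h, which blocks CDK9 and keeps RNA polymerase II (Pol II) near promoters, and 1 mM 4SU marked new RNA after the drug was washed out. Each group was sampled 10, 20, 30 and 40 min after release, with 1 library per group and time. No replicate error exists, and every comparison below is a description of these libraries without a test.

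For each gene the tables give a wave peak, the called peak position of the transcription wave of released Pol II. It lies inside a window that opens 2 kb before the transcription start site (TSS) and closes 120 kb after it. Positions are given in kb from the TSS. A wave peak at the first position of the window is called "at the window start" and one at its last position "at the window end". Coverage was deposited as 1 value per gene and series in RPM (written rpm below, reads scaled to a total of 1000000) over a window of the same length for every gene. The number of reads is unknown, so no counting interval can be given. THOC5 is not listed, and its depletion was not checked here. Of 12 kidney and HEK293 developmental genes chosen as markers, 5 were listed, with 4.06 to 66.4 rpm in shCtrl, and of 15 neuronal markers 5 were listed, with 2.73 to 29.9 rpm. No marker of either list reached 100 rpm in shCtrl, and in shTHOC5 only CDH2, a cadherin of the first list, did (104 rpm), so the cell line could not be checked by these markers.

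Promoters of 4 genes are shown because the wave starts from them, 3 of them with wave peaks near the TSS and 1 of the lowest coverage in the group. The sequences are the 250 bases before the RefSeq start on GRCh38.p14, in the direction of the gene, with each CG dinucleotide in capitals. The KCNC4 promoter lies at chr1:110210064-110210313 on the plus strand, that of TRPM7 at chr15:50686798-50687047 on the minus strand, that of TRPC1 at chr3:142723784-142724033 on the plus strand and that of GRIN3A at chr9:101738648-101738897 on the minus strand.
KCNC4: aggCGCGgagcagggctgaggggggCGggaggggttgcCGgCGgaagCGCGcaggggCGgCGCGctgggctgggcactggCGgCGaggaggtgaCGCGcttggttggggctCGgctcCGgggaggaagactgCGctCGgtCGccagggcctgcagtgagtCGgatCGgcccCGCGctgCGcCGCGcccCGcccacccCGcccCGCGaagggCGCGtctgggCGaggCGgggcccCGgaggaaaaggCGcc
TRPM7: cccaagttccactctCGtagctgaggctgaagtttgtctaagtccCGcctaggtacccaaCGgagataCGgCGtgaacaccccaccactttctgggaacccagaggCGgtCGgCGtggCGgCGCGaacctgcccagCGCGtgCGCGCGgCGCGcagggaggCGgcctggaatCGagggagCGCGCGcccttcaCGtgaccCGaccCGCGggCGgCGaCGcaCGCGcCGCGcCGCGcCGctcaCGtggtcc
TRPC1: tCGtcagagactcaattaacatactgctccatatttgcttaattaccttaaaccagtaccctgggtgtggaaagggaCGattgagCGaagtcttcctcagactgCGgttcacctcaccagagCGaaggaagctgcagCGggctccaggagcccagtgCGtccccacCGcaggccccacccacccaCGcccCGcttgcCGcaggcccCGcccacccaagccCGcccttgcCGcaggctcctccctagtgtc
GRIN3A: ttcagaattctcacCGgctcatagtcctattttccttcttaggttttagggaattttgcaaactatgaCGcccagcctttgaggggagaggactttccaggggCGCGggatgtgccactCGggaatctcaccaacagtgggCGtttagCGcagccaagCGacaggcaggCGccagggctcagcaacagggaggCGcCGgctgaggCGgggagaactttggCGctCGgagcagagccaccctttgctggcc
The 250 bases hold 36 CG dinucleotides in KCNC4, 38 in TRPM7, 14 in TRPC1 and 14 in GRIN3A, against a median of 21 over the 3679 listed genes with a promoter in the RefSeq table. The GC box GGGCGG, searched on both strands, stood in the first 3 and not in GRIN3A, and 63.6% of the listed promoters hold it. Only 65 of the 85 genes (76.5%) had a promoter in the table, below the 80% set for such a check, so a comparison of base composition across the group is void and is not given.

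Most of these genes had little coverage. Coverage reached 100 rpm in 13 of 85 genes in shCtrl, where 52.7% of all listed genes did, and in 13 in shTHOC5, where 57.6% did. The median was 14.4 rpm in shCtrl against 110 rpm over all listed genes, and 15.0 rpm in shTHOC5 against 132 rpm. Together the 85 genes held 0.391% of the listed coverage in shCtrl and 0.446% in shTHOC5. Under 10 rpm lay 39 of the 85 genes in shCtrl (45.9%, against 14.7% of all genes) and 29 in shTHOC5 (34.1%, against 11.4%).

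The lowest levels did not reach zero and differed between the series. In shCtrl no gene of the group lay under 2 rpm and 16 lay under 3 rpm. In shTHOC5 14 lay under 2 rpm. Over all listed genes 12 were above 0 and under 2 rpm in shCtrl and 162 in shTHOC5, while 5 genes in each series were listed at 0. No ratio between the series is therefore read for genes at these levels. The 2 genes of lowest coverage in shCtrl were GRIN3A, an NMDA receptor subunit, with 2.28 rpm in shCtrl and 1.89 rpm in shTHOC5, and KCNK2, a two-pore potassium channel, with 2.40 and 1.21 rpm.

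Families differed in how many members were covered. None of the 9 GABA-A receptor subunits reached 100 rpm in either series, and their medians were 3.63 rpm in shCtrl and 2.92 rpm in shTHOC5, with GABRR2 the highest at 30.0 and 50.6 rpm. None of the 9 voltage-gated sodium channels reached it either, with medians of 8.30 and 10.6 rpm. The 5 two-pore potassium channels had medians of 3.57 and 22.2 rpm. Of 10 genes grouped by symbol with the voltage-gated calcium channels 3 reached 100 rpm in 1 of the series and none in both. They were CACNA1H and 2 genes of AMPA receptor auxiliary subunits, CACNG2 and CACNG3. Of 9 TRP channel genes, TRPM7 and TRPC1 reached it in both series while the family's median was 17.1 rpm in shCtrl. Among 3 CLC genes CLCN3 stood at 286 rpm in shCtrl, CLCN5 at 46.8 rpm and CLCN4 at 3.49 rpm.

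The exceptions with 100 rpm or more in both series were 8 of 85 genes, where 50% of all listed genes qualified. In shCtrl and shTHOC5 in turn, coverage was 340 and 303 rpm in TRPC4AP, 286 and 309 rpm in CLCN3, 244 and 186 rpm in KCNIP3, and 228 and 155 rpm in KCNC4. It was 222 and 234 rpm in TRPM7, 143 and 208 rpm in ANO6, 142 and 149 rpm in CHRM5, and 121 and 190 rpm in TRPC1. Coverage is that of the whole window, which runs past the gene end in 40 of the 85 genes (47.1%, against 58.1% of the other listed genes). It can therefore hold reads of neighbouring genes, and their part was not tested. KCNIP3 and CHRM5, with most wave peaks past the gene end, are among the 40. So are CLCN3, KCNC4, TRPC1 and TRPC4AP, while TRPM7 and ANO6 are wider than 120 kb. CLCN3 is a chloride/proton exchanger of endosomes, TRPM7 a cation channel joined to a kinase, ANO6 a calcium-activated lipid scramblase, TRPC1 a cation channel subunit, KCNC4 a fast voltage-gated potassium channel and CHRM5 a muscarinic acetylcholine receptor. Another 5 genes passed in shCtrl alone, namely CACNA1H, KCNC1, KCNAB2, HTR2A and CACNG2, and 5 in shTHOC5 alone, namely CACNG3, CHRNB4, GRIK5, KCNJ10 and KCNMB4. Thus 18 of the 85 genes passed in either series and 8 in both. Over all 4592 listed genes, 2764 passed in either series and 2298 in both, with 2419 in shCtrl and 2643 in shTHOC5. Whether passing in a single series is particular to channel genes was not tested. Just inside the limit in shCtrl were CACNG2 (102 rpm) and HTR2A (121 rpm).

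**Figure D1:**
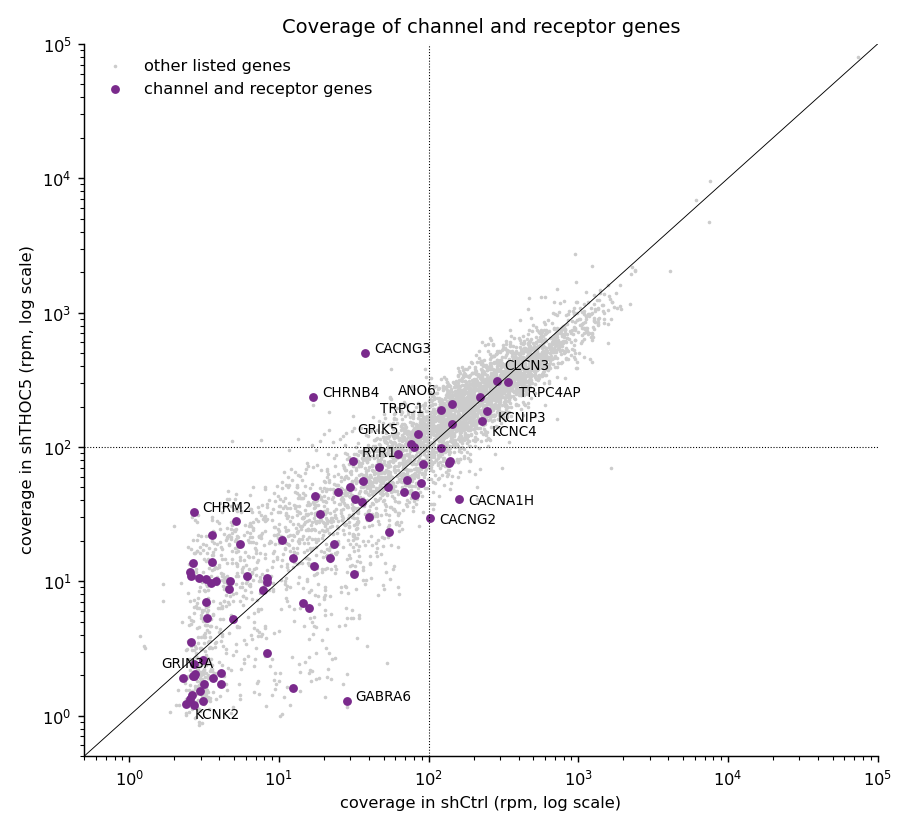
Coverage in shTHOC5 against shCtrl, both in rpm on log axes, with 1 point per gene (purple, the 85 channel and receptor genes, and grey, the other listed genes). Dotted lines mark 100 rpm and the solid line equal coverage. 13 genes lie outside the axes. Most purple points lie low and to the left, 8 lie past both limits, and CACNG3 and CHRNB4 stand far above the line.

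At low coverage a wave peak was still called for every gene and time, but the positions were rarely in release order. For the 39 genes under 10 rpm in shCtrl, 23 of 156 wave peaks (14.7%) lay at the window start and 34 (21.8%) at the window end, and 94 (60.3%) lay inside the gene. For the other listed genes of that coverage the shares were 20.8%, 13.6% and 57.4%. In shTHOC5 the 29 genes under 10 rpm had 15.5% at the window start and 14.7% at the window end, against 21.6% and 13.8% for the others. At least 1 of the 4 wave peaks was at an end of the window in 30 of the 39 genes in shCtrl and in 19 of the 29 in shTHOC5 (76.9% and 65.5%, against 73.7% and 69.6% of the other genes of that coverage). Between successive times the wave peak moved back towards the TSS by over 20 kb at least once in 30 of 39 genes in shCtrl (76.9%) and in 18 of 29 in shTHOC5 (62.1%), a measure chosen after the values were seen. The other genes under 10 rpm did so in 70.5% and 55.0%, and the other genes of 100 rpm or more in 22.4% and 6.73%. Backward steps were thus nearly as common in the other listed genes of low coverage. Among the shares under 10 rpm in this paragraph, the widest gap between the groups was in the wave peaks at the window end in shCtrl. Some of those 34 wave peaks come from the same gene, as in GABRG1, which stood at the window end at all 4 times in shCtrl.

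GRIN3A had wave peaks at 19.5, 17.7, 72.3 and 65.1 kb in shCtrl and at 14.8, 14.7, 16.3 and 16.6 kb in shTHOC5 at the 4 times. KCNK2 had wave peaks at 99.7 kb, the window end, the window start and 30.7 kb in shCtrl, and in shTHOC5 all were at the window start except 99.7 kb at 20 min. Neither gene had 4 wave peaks in release order in either series. Over the 25 genes under 10 rpm in both series, the wave peaks of the 2 series lay a median of 36.4, 23.6, 30.6 and 43.3 kb apart at 10, 20, 30 and 40 min. Over all listed genes of 100 rpm or more in both series these distances were 1.27, 1.53, 2.09 and 1.96 kb.

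**Figure D2:**
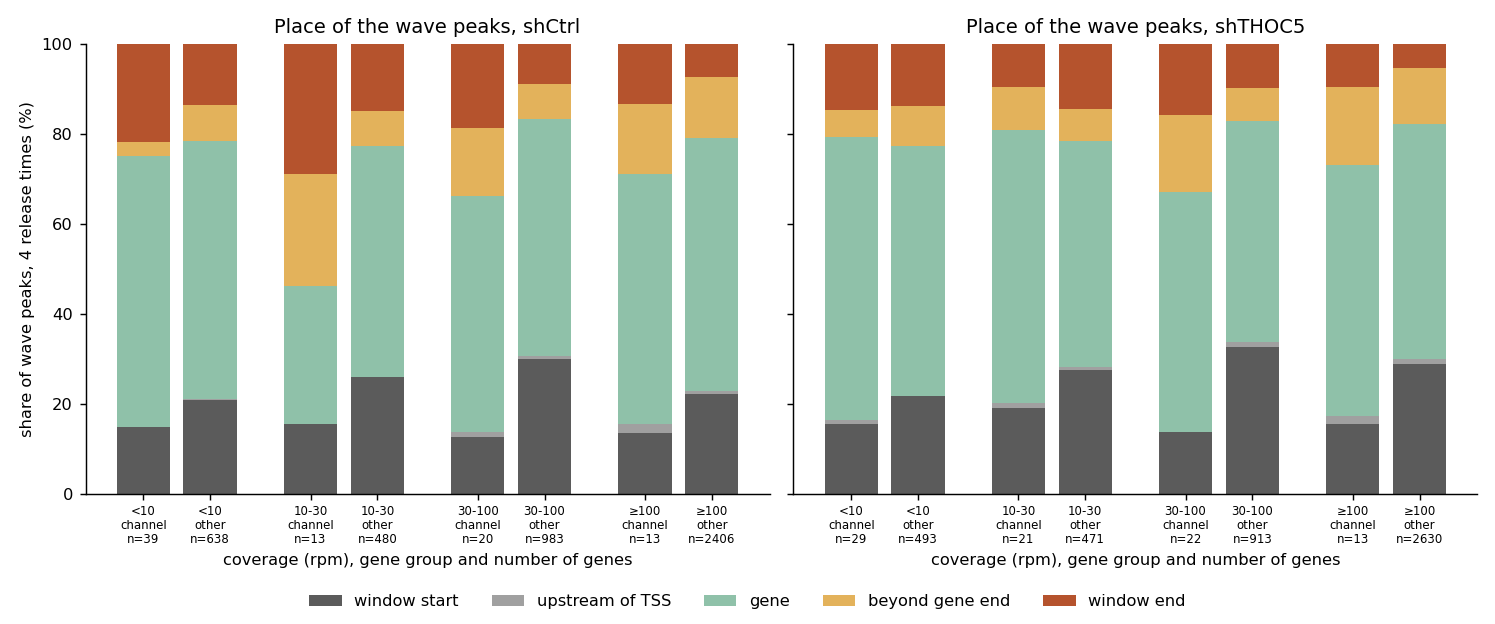
Share of called wave peaks (percent, 4 release times together) at the window start, upstream of the TSS, inside the gene, beyond its end and at the window end. Pairs of bars give channel and receptor genes and other listed genes in 4 coverage ranges, with the number of genes under each bar. At under 10 rpm in shCtrl the window end holds 21.8% of the wave peaks of the channel and receptor genes and 13.6% of those of the others.

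At 10 min after release the wave peak of well covered genes was often called at the window start, the limit of the window 2 kb before the TSS. Among the genes of 100 rpm or more it was there in 4 of 13 (30.8%) in shCtrl and 6 of 13 (46.2%) in shTHOC5, against 35.6% and 55.2% of the other genes of that coverage. Over all listed genes of any coverage the shares were 33.8% and 47.5%. Under 10 rpm it was there in 15.4% of the genes in shCtrl and 13.8% in shTHOC5, against 22.3% and 23.5% of the other genes of that coverage.

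Wave peaks that moved farther from the TSS at each later time were found in 5 of the 85 genes in shCtrl, where 13.2% of all listed genes had them, and in 11 in shTHOC5, where 31.3% had them. In shCtrl they included CLCN3, TRPM7, KCND3 and SCN3A, and KCND3 (5.48 rpm) and SCN3A (2.75 rpm) are among those of lowest coverage. KCND3 had wave peaks at 37.1, 102, 108 and 113 kb in shCtrl, but at 80.7 kb, the window start, 111 kb and the window end in shTHOC5. SCN3A had 22.1, 24.9, 95.6 kb and the window end in shCtrl, and 112 kb, 88.1 kb, the window start and 3.31 kb in shTHOC5. Order within 1 series thus did not return in the other for these 2 genes. By coverage in shTHOC5, the order was found in 1 of 29 genes under 10 rpm, 0 of 21 from 10 to 30 rpm, 4 of 22 from 30 to 100 rpm and 6 of 13 of 100 rpm or more. The other listed genes had it in 5.48%, 8.70%, 23.9% and 43.4% of these ranges. In shCtrl, over the same ranges in turn, it was found in 2 of 39, 0 of 13, 1 of 20 and 2 of 13 genes. There the other listed genes had it in 2.98%, 4.58%, 8.95% and 19.7%. CLCN3 and TRPM7 had their wave peaks in order in both series.

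The authors' mark for genes that passed their filters kept 1 of the 85 genes in shCtrl, CLCN3, where 4.92% of all listed genes were kept. It kept 2 in shTHOC5, CLCN3 and KCNIP3, where 10% were kept. The authors' filters left out poorly covered genes, and no listed gene under 100 rpm was kept in either series. Among the genes of 100 rpm or more in shCtrl it kept 1 of 13, against 225 of 2406 other listed genes. In shTHOC5 it kept 2 of 13, against 459 of 2630. The kept genes carried rates of 0.388 kb/min (CLCN3, shCtrl), 0.364 kb/min (CLCN3, shTHOC5) and 2.30 kb/min (KCNIP3, shTHOC5).

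The 8 genes of 100 rpm or more in both series fell into 6 whose wave peaks at 40 min lay within 25 kb of the TSS in both series and 2, KCNIP3 and CHRM5, whose wave peaks lay past 100 kb at that time. The gene with the most regular wave was CLCN3 (GRCh38, chr4:169612633-169723673, plus strand). Its wave peaks lay at 9.56, 11.0, 13.7 and 15.3 kb in shCtrl and at 9.22, 10.6, 11.7 and 15.0 kb in shTHOC5. Each step went forward in both series, and the shTHOC5 position was behind that in shCtrl at all 4 times, with differences of -0.332, -0.459, -2.03 and -0.343 kb.

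TRPM7 (chr15:50552473-50686797, minus strand), whose promoter sequence stands above, had its wave peaks at the window start, 2.21, 4.95 and 24.1 kb in shCtrl and at the window start, 0.719, 1.77 and 9.01 kb in shTHOC5. Both series moved forward at each step, and from 20 min on shTHOC5 lay behind, with a difference of -15.1 kb at 40 min, the largest of the 8 genes at that time. GENCODE release 44 also lists a coding gene on the same strand, ENSG00000288645, from 0.0800 to 38.0 kb of this window, and 6 of the 8 wave peaks lie in it, so the 2 genes' reads cannot be told apart.

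KCNC4 (chr1:110210314-110283100, plus strand) had wave peaks at 4.03, 12.8, 10.7 and 15.8 kb in shCtrl and at the window start, 6.30, 8.92 and 9.77 kb in shTHOC5. The shTHOC5 position was behind at all 4 times, with differences of -6.03, -6.53, -1.80 and -6.07 kb. TRPC4AP (chr20:35002404-35092807, minus strand) had the window start, 4.24, 55.4 and 16.0 kb in shCtrl and the window start at 10 and 20 min, then 1.79 and 6.05 kb in shTHOC5. Its 30 min position in shCtrl lay well ahead of that at 40 min, so the difference of -53.6 kb at 30 min rests on a position out of order.

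TRPC1 (chr3:142724034-142807888, plus strand) had its wave peak called at the window start at 10 and 20 min in both series. At the 2 later times it lay at -1.28 and 2.90 kb in shCtrl and at -0.973 and 4.14 kb in shTHOC5. Its deposited rates were 0.105 kb/min in shCtrl and 0.133 kb/min in shTHOC5, the lowest of the 8 genes in shTHOC5. ANO6 (chr12:45215987-45482280, plus strand) had the window end, 2.86, 3.95 and 7.01 kb in shCtrl and the window start, 2.67, 5.97 and 7.91 kb in shTHOC5. With the 10 min wave peak in shCtrl at the far end of the window, its deposited rate was -0.980 kb/min, while the rate in shTHOC5 was 0.278 kb/min. In TRPC1 and ANO6 the wave peak at 40 min lay farther from the TSS in shTHOC5, by 1.24 and 0.907 kb, and these were the only 2 of the 8 genes that were farther at that time.

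**Figure D3:**
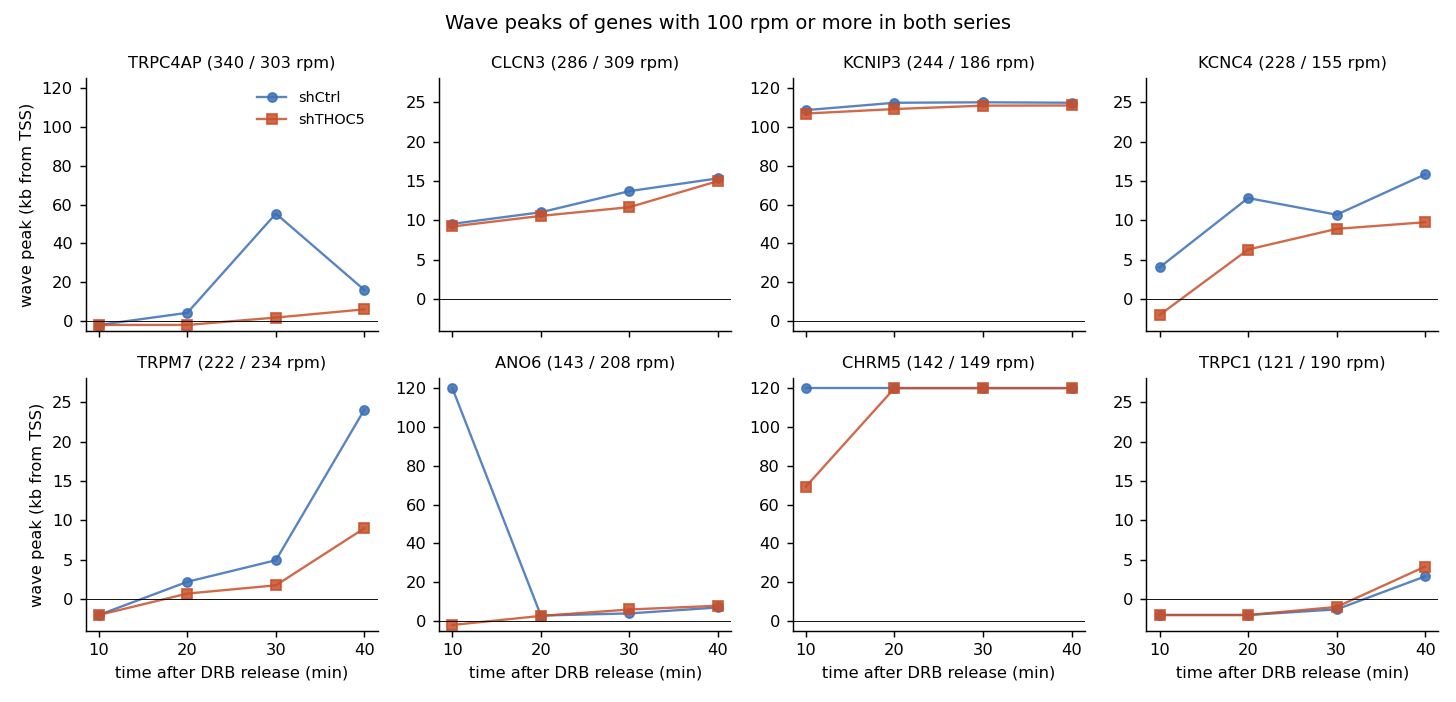
Wave peak position (kb from the TSS) against time after DRB release (min) for the 8 genes of 100 rpm or more in both series, 1 library per point, with coverage in shCtrl and shTHOC5 in each title. The upper limit of the position axis is 28 kb in 4 panels and 125 kb in the other 4. CLCN3, KCNC4 and TRPM7 end farther out than they began, with shTHOC5 behind or level at each time, and KCNIP3 and CHRM5 stay far from the TSS.

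KCNIP3 (chr2:95297327-95386077, plus strand) is 88.8 kb wide, and its wave peaks lay at 109, 112, 113 and 112 kb in shCtrl and at 107, 109, 111 and 111 kb in shTHOC5. All 8 thus lay past the annotated end of the gene, inside FAHD2A (chr2:95402708-95416616), a gene of the same strand from 105 to 119 kb of the window. The positions rose at each time in shTHOC5, and the gene was kept with 2.30 kb/min. The slope over the 4 release times alone was 0.142 kb/min in shTHOC5 and 0.117 kb/min in shCtrl, because the deposited rate also includes a point at position 0 and 0 min. On that construction a wave peak that does not move gets 0.0200 kb/min for each kb of its distance from the window start, and one at the window end gets 2.44 kb/min.

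The same was seen in other genes of the group, with all 8 wave peaks inside another coding gene of the same strand in 6 of the 82 genes whose listed width equals that in GENCODE release 44 (7.32%, against 4.96% of the other listed genes with that width). HTR2A, a serotonin receptor, had wave peaks from 102 kb to the window end, inside ESD, while HTR2A itself is 65.5 kb wide. GRIK5, a kainate receptor subunit 71.9 kb wide, had all 8 between 112 and 113 kb, inside RABAC1 (chr19:41956681-41959321). CACNA1S, the calcium channel of skeletal muscle, had its 8 from 91.9 kb to the window end, inside KIF21B. KCNJ10, a potassium channel of glia and kidney, had its 8 from 39.1 to 41.0 kb, inside PIGM (chr1:160024953-160031990), which lies within the annotated KCNJ10 gene.

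In some genes the positions hardly moved between times and series. In KCNJ10 the 8 wave peaks spanned 1.92 kb and in GRIK5 1.12 kb. Sets of 8 within 5 kb were found in 4 of the 85 genes, where 4.53% of all listed genes had them, and the other 2 were RYR1 and CACNA2D4. Sets with a wave peak upstream of the TSS or with all 8 at the window end were not counted, and 1 further gene had all 8 at the window start. RYR1, the calcium release channel of muscle, stood between 109 and 111 kb in all 8 libraries, inside its own gene (162 kb wide) and with no other coding gene annotated at that place on either strand. Its coverage was 31.1 rpm in shCtrl and 78.7 rpm in shTHOC5, and its rates of 2.23 and 2.26 kb/min come from a position that did not move. CACNA2D4, a calcium channel auxiliary subunit, stood between 113 and 117 kb of its 127 kb.

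Over the 82 genes, 149 of 656 wave peaks (22.7%) lay past the end of the gene, against 16.7% in the other listed genes. Of these 149, 67 were inside a coding gene on the same strand (45.0%, against 37.6% in the others) and 121 inside one on either strand (81.2%, against 81.0%). CHRM5, 99.0 kb wide, had 7 of its 8 wave peaks at the window end and 1 at 69.3 kb, with rates of 2.44 and 2.95 kb/min, and the coding gene at the window end, EMC7, is on the opposite strand. Whether the coverage was counted by strand is not given in the sources used here, and the part of neighbouring genes in these positions was not tested.

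**Figure D4:**
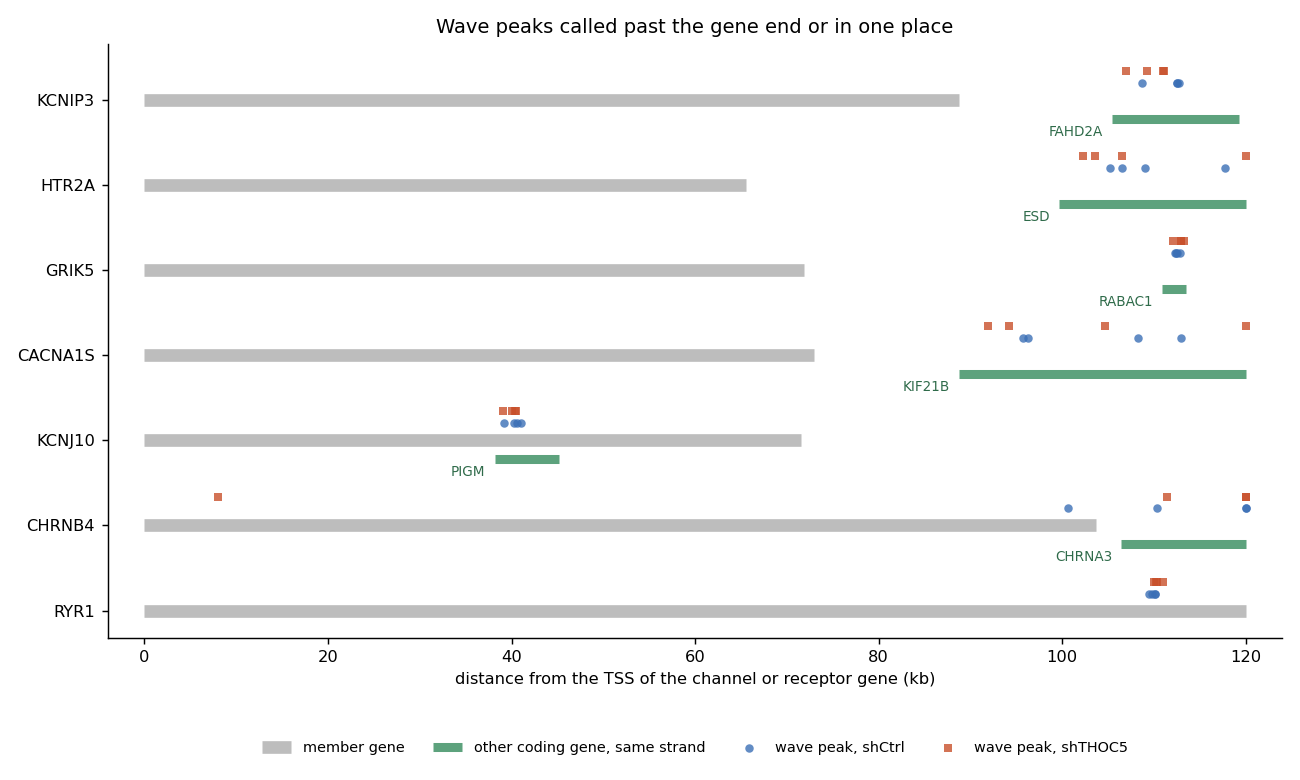
Positions of the 8 wave peaks (circles, shCtrl, and squares, shTHOC5) in kb from the TSS of 7 channel and receptor genes, with the annotated gene in grey and a coding gene of the same strand in green, both cut at 120 kb. In KCNIP3, HTR2A, GRIK5, CACNA1S and KCNJ10 every wave peak lies over the green bar, in CHRNB4 6 of 8 do, and in RYR1 all lie between 109 and 111 kb.

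The deposited rates reflect these positions. Among the genes under 10 rpm in shCtrl the rates ran from -0.897 to 3.18 (median 1.12) kb/min, and 7 of 39 were below 0 (17.9%) and 15 over 2 kb/min (38.5%), against 12.4% and 20.5% of the other genes of that coverage. In shTHOC5 5 of 29 were below 0 (17.2%, against 10.3%) and 7 were over 2 kb/min (24.1%, against 28.8%). Among the 13 genes of 100 rpm or more in shCtrl they ran from -0.980 to 2.44 (median 0.424) kb/min, and 4 of the 13 were below 0, where 6.69% of the other genes of that coverage were. In shTHOC5 the median was 0.510 kb/min under 10 rpm and 0.860 kb/min at 100 rpm or more, where no rate was below 0, against 1.83% of the others. Over the other listed genes of 100 rpm or more the medians were 0.369 kb/min in shCtrl and 0.296 kb/min in shTHOC5. Over the other listed genes under 10 rpm they were 1.02 kb/min in shCtrl and 1.09 kb/min in shTHOC5. For the 8 genes of 100 rpm or more in both series the median rate was 0.507 kb/min in shCtrl and 0.311 kb/min in shTHOC5, and the rate was lower in shTHOC5 in 5 of the 8, where it was lower in 49.0% of all 2298 listed genes of that coverage. The order of the 2 medians turned with the measure. Over the 4 times alone they were 0.177 kb/min in shCtrl and 0.305 kb/min in shTHOC5, the means of the deposited rates were 0.779 and 0.853 kb/min, and over the 2 genes at least 120 kb wide the medians were -0.195 and 0.268 kb/min. In TRPM7 it was 0.591 and 0.258 kb/min, in KCNC4 0.424 and 0.345 kb/min, and in TRPC4AP 0.933 and 0.199 kb/min.

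**Figure D5:**
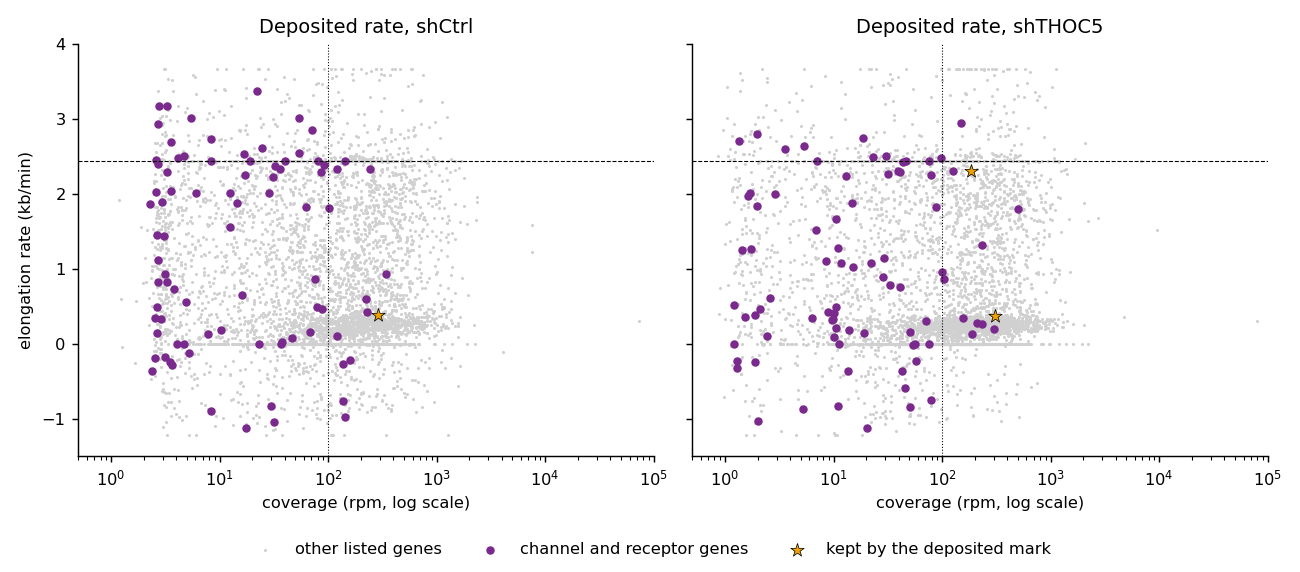
Deposited elongation rate (kb/min) against coverage (rpm, log axis) in shCtrl and shTHOC5, with 1 point per gene (purple, channel and receptor genes, grey, other listed genes, and stars, channel and receptor genes kept by the authors' mark). The dotted line marks 100 rpm and the dashed line the 2.44 kb/min of 4 wave peaks at the window end. 10 genes lie outside the axes in shCtrl and 11 in shTHOC5. Rates of the purple points under 10 rpm run from -0.897 to 3.18 kb/min in shCtrl and from -1.03 to 2.80 kb/min in shTHOC5.

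Between the series, the wave peak of the 8 genes was nearer the TSS in shTHOC5 in 5 genes at 10 min, where 49.1% of all 2298 listed genes of that coverage were nearer. It was nearer in 6 at 20 min against 50.7%, in 5 at 30 min against 57.8%, and in 5 at 40 min against 53.4%. The position was the same in 3, 2, 1 and 1 genes and farther in 0, 0, 2 and 2 genes. The median difference was -1.04, -0.977, -1.76 and -0.876 kb at the 4 times, against 0, -0.0625, -0.748 and -0.200 kb over all genes of that coverage. KCNIP3 has all 8 wave peaks past the gene end and CHRM5 7 of 8 at the window end, and without them the nearer genes were 3, 5, 4 and 4 of 6 at the 4 times. With 8 genes and 1 library per point, nothing particular to the channel genes is read from these counts.

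Coverage was 1.5-fold or more higher in shTHOC5 in 3 of the 18 genes that had 100 rpm or more in at least 1 series, where 20.6% of all such genes were, and 1.5-fold or more lower in 4, where 11.3% were. The higher genes were CACNG3, from 37.5 rpm in shCtrl to 498 rpm in shTHOC5 (13.3-fold), CHRNB4, from 17.0 to 235 rpm (13.8-fold), and TRPC1 (1.57-fold). CACNG3 encodes an auxiliary subunit of AMPA receptors and CHRNB4 a nicotinic receptor subunit, and both stand apart, since 5 of the 2764 listed genes compared (0.181%) were 10-fold or more higher. The CHRNB4 window runs into CHRNA3, another nicotinic subunit of the same strand, where 6 of its 8 wave peaks lay. The CACNG3 wave peaks did not follow release order in shTHOC5, at 31.2, 85.1, 31.1 and 87.6 kb, and shCtrl also had 31.1 and 32.3 kb at 30 and 40 min.

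The lower genes were CACNA1H, a T-type calcium channel, from 159 to 40.9 rpm (3.90-fold lower), CACNG2, an AMPA receptor auxiliary subunit, from 102 to 29.5 rpm (3.47-fold lower), KCNAB2 (1.80-fold lower) and KCNC1 (1.74-fold lower). KCNAB2 encodes a beta subunit of voltage-gated potassium channels and KCNC1 a fast potassium channel. Over all listed genes with coverage the median ratio was 1.09, a shift of 0.129 on the log2 scale, and the median ratio of the 18 genes was 1.05, against 1.05 over all genes of that coverage. After division of each series by its median coverage, 2 genes were higher (CACNG3 and CHRNB4, without TRPC1) and 6 lower (the same 4 with KCNC4 and KCNIP3). With 1 coverage value per series no ratio has a replicate check, and in bulk RNA fewer cells making a transcript and less of it per cell cannot be told apart. The wave peaks of CACNA1H, 159 rpm in shCtrl, lay at 44.6, 6.01, 8.16 and 5.03 kb in shCtrl and at 53.7, 2.78, 4.49 and 60.1 kb in shTHOC5, with no forward order in either series.

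Of the remaining genes of 100 rpm or more in 1 series, KCNC1, KCNMB4 and KCNAB2 had some wave peaks within 25 kb downstream of the TSS. CACNG2 had none there. KCNC1 had the window end, 6.56, 65.8 and 11.8 kb in shCtrl and 102, 5.14, 7.06 and 7.56 kb in shTHOC5, so the 20 to 40 min positions moved forward in shTHOC5 only. KCNMB4, the beta subunit of the large-conductance potassium channel in neurons, had 48.7 kb, the window start, 47.4 and 22.8 kb in shCtrl, and the window start, 2.43, 6.06 and 41.7 kb in shTHOC5. KCNAB2 had 84.4 kb, the window start, 8.54 kb and the window start in shCtrl and stood at the window start at all 4 times in shTHOC5. Its window start lies inside NPHP4, a coding gene of the opposite strand. CACNG2 had the window start, the window end, 71.4 and 52.0 kb in shCtrl, but 54.4 to 56.7 kb at all 4 times in shTHOC5.

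Other channels and receptors whose symbols lie outside the pattern were taken as a second list of 79 genes, of which 27 were listed. Of the 27, 10 reached 100 rpm in shCtrl (37.0%) and 12 in shTHOC5 (44.4%), with medians of 69.3 and 92.4 rpm. PIEZO1, a mechanically gated channel, had 320 and 279 rpm, ITPR3, a calcium release channel of the endoplasmic reticulum, 291 and 162 rpm, and STIM1, the calcium sensor of that store, 207 and 190 rpm. The lowest of the list, UNC80, a partner of the sodium leak channel, had 2.37 and 1.84 rpm.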

How the data were processed

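DRB/TTchem-seq was measured in 8 libraries, 4 release times in shCtrl and 4 in shTHOC5 HEK293 cells. With a published pipeline the authors called the wave peaks and fitted a rate per gene. They deposited 2 tables of 4592 genes, with wave peaks in bp from the window start, a rate in kb/min and a filter mark. The deposited coverage column is named for RPKM, but its values sum to 1000000 and were read as RPM normalized by the authors. The aligner and the strand setting of the count are not given in the sources used here, and reads per library, and so the precision, are unknown.

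Symbols were matched for 4590 of 4592 identifiers. The members and gene lists were chosen with earlier results of these data known. Positions were converted to kb by subtracting the 2 kb in front of the TSS. Refitted least-squares slopes including position 0 at 0 min came within 0.001 kb/min of the deposited rate in all 4592 genes of each series. Coordinates and neighbouring genes came from GENCODE release 44 on GRCh38, where 82 of the 85 genes had the listed width (not GRIA2, HTR4 and TRPM1), and promoters from RefSeq (GRCh38.p14). Genes were named if they had 100 rpm in at least 1 series, lay next to that limit in shCtrl, were of lowest coverage, had wave peaks in order in both series, were kept by the mark, or differed most at 40 min. Others were named after their values were seen, for positions in a neighbouring gene, standing wave peaks, family levels or order in shCtrl. Some genes that these rules give are not reported here. Functions were tested on simulated data. No test was run, because each group and time has 1 library. Python 3.11.15, numpy 2.4.6 and pandas 2.3.3 were used, and plots were drawn with matplotlib 3.10.9. The nanopore and ChIP-seq samples were not analysed here.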

Additional observations from a re-analysis of the deposited data

How the results depend on the processing

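The groups share release times but no replicate numbers. The differences at matching times are given as values, and no fit of group with release time as a block was run, since release times are not replicates. Of 108 alternative values of 16 results, 66 stayed within 1.5 times the value given (shares, within its 95% Wilson interval), 38 moved outside and 4 turned direction. The Wilson interval takes genes or wave peaks as independent draws and is wide for 8 genes. By it 33.3% nearer the TSS at 10 min (200 rpm) counted as staying with 62.5%, so the 66 are no measure of stability. 2 of the alternatives were chosen after seeing the data: leaving out the 10 min time for release order, and leaving out KCNIP3 and CHRM5 for the difference between the series. How the wave peaks depend on sequencing depth, which the tables leave unknown, was not tested.

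The share of genes past the coverage limit (15.3% in each series) was 28.2% in shCtrl and 29.4% in shTHOC5 at 50 rpm, 5.88% and 7.06% at 200 rpm, and 8.89% and 4.44% over genes at least 120 kb wide. Wave peaks at the first or last position of the window made up 36.5% and 30.2% under 10 rpm. Genes in release order numbered 2 and 5 over genes at least 120 kb wide, 19 and 26 with equal positions allowed, and 12 and 33 without the 10 min time. With a first wave peak at least 2 kb from the window start, 5 were in order in shTHOC5.

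The median rate in shCtrl (0.507 kb/min) was -0.195 kb/min over the 2 genes at least 120 kb wide (TRPM7 and ANO6), 0.864 kb/min at 50 rpm, 0.779 kb/min as a mean and 0.177 kb/min over the 4 times alone. In shTHOC5 (0.311 kb/min) it was 0.268, 0.345, 0.853 and 0.305 kb/min in turn, so shTHOC5 was the higher of the series in 3 of these 4. The share nearer the TSS in shTHOC5 was 100.0% at 20, 30 and 40 min for the 3 genes of 200 rpm and for the 2 genes in order in both series, and 100.0% at 20 min for the 2 genes at least 120 kb wide. At 10 min it was 33.3% for the 3 genes of 200 rpm and 50% for each of the other 2 sets. For the 19 genes of 50 rpm it was 63.2%, 57.9%, 73.7% and 47.4% at the 4 times. The median difference at 40 min was -0.343 kb without TRPC4AP, -7.07 kb at 120 kb width, 0 kb at 50 rpm, -9.93 kb at 200 rpm, -7.70 kb for genes in order, -3.21 kb without KCNIP3 and CHRM5, and -3.83 kb as a mean.

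The median coverage ratio fell below 1 over genes at least 120 kb wide (0.816), at 50 rpm (0.994) and after division by the median coverage of each series (0.882). Higher genes numbered 0 at 120 kb width and 7 at 50 rpm. Lower genes numbered 2 at 120 kb width, 7 at 50 rpm and 0 at 200 rpm.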

Other observations

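A short wave near the TSS from 20 min on was looked for after the values were seen. Wave peaks that moved forward from 20 to 40 min, all within 25 kb downstream of the TSS, were found in 13 of the 85 genes in shTHOC5 (15.3%, against 22.7% of all listed genes) and in 3 in shCtrl (3.53%, against 9.49%). Of the 72 genes under 100 rpm in shTHOC5, 9 had it (12.5%, against 10.8% of all listed genes of that coverage), and of the 72 in shCtrl 0 had it (against 3.73%). The 9 include the neuronal calcium channel CACNA1B and the calcium channel subunit CACNA2D2. CACNA2D2 (46.0 rpm in shTHOC5) had wave peaks at 4.19, 5.75 and 7.98 kb, and CACNA1B (43.2 rpm) at 0.991, 2.22 and 4.87 kb at 20, 30 and 40 min. In 4 of the 13 genes, among them CACNA2D2, CACNA1B and KCNC1, the wave peak at 10 min lay past 25 kb, and in CACNA2D2 it lay at 84.3 kb. GRIN3A, at 1.89 rpm, is also among the 13, with positions from 14.7 to 16.6 kb.

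CLCN5, an endosomal chloride/proton exchanger under 100 rpm in both series (46.8 and 70.9 rpm), moved outward in shTHOC5, from the window start to 1.61, 5.18 and 9.45 kb, and mostly back in shCtrl, from 6.71 and 7.53 kb to 4.52 and 2.91 kb. The difference was not tested.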
